A study of Saccharomyces cerevisiae with 26 samples.

Results

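The 10 genes described here encode the enzymes of the lower part of glycolysis, from triose phosphate to pyruvate, in budding yeast. They are TPI1, TDH1, TDH2, TDH3, PGK1, GPM1, ENO1, ENO2, CDC19 and PYK2, taken by name from the 6008 genes of the deposited RNA table, and all 10 were found there. RNA was sequenced from the CEN.PK strain carrying TAF14[W81A], called the mutant below, and from CEN.PK wild type with no change in TAF14. Both were grown in continuous culture, in which yeast oxygen use oscillates, and were sampled at 5 time points of this metabolic cycle. Time points 1 and 2 lie in the early and late oxidative phase (OX), 3 and 4 in the early and late reductive building phase (RB), and 5 in the reductive charging phase (RC). Each of the 10 groups of genotype and time point held 2 RNA libraries. TAF14 is a subunit shared by several transcription and chromatin-remodelling complexes, and its YEATS domain, which W81A alters, binds acylated histone lysines. W81A is a point change, so the level of TAF14 RNA does not check the genotype. Whether the 2 libraries of a group came from separate cultures is not stated, and every p-value below measures only the spread between these libraries.

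Lower glycolysis is the part of the pathway that yields ATP. Triose phosphate isomerase (TPI1) interconverts the triose phosphates, glyceraldehyde-3-phosphate dehydrogenase (TDH1, TDH2, TDH3) oxidises one of them with NAD+, and phosphoglycerate kinase (PGK1) makes ATP from the product. Phosphoglycerate mutase (GPM1), enolase (ENO1, ENO2) and pyruvate kinase (CDC19, PYK2) complete the path to pyruvate and more ATP. In yeast all of these steps except pyruvate kinase also run backwards in gluconeogenesis. Several steps have isoforms under different control: ENO2 and CDC19 are the isoforms induced on glucose, ENO1 and PYK2 are comparatively favoured on other carbon sources, TDH3 is the main dehydrogenase and TDH1 is associated with stress and stationary phase.

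The coding regions lie on 8 chromosomes and are placed here on the R64 assembly, known as sacCer3, with lengths from RefSeq. TPI1 spans 555726 to 556472 on chromosome IV, PGK1 137746 to 138996 on chromosome III and GPM1 163642 to 164385 on chromosome XI. The dehydrogenase genes TDH1 (338271 to 339269) and TDH2 (453683 to 454681) share chromosome X, and TDH3 lies at 882812 to 883810 on chromosome VII. ENO1 lies on chromosome VII at 1000927 to 1002240 and ENO2 on chromosome VIII at 451327 to 452640. CDC19 spans 71786 to 73288 on chromosome I and PYK2 984942 to 986462 on chromosome XV. TDH2 and TDH3 are near-identical in coding sequence, as are ENO1 and ENO2. How reads matching both copies were counted is not given in the sources used here, so the split between copies is uncertain.

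The deposited RNA table gives 1 log2 level per gene, genotype and time point, and the whole reads of the 2 libraries behind a level were recovered from its decimals. Levels are per length, so genes can be compared, but their unit is not stated and only differences and ratios are interpreted. Recovered reads summed to between 3141225 and 6497970 per library over genes with a single solution. The 2 libraries of a group correlated at Pearson r 0.986 to 0.994 across genes, and the median SD between them was 0.0929 in the mutant and 0.125 in wild type at time point 1, against 0.0532 to 0.0726 in the other 8 groups. The first principal component held 70.4% of the variance. On it, the mutant libraries of time points 3 and 4 scored 21.7 to 34.4 and the wild-type libraries of the same times 43.8 to 59.9, so the genotypes stood apart in RB across all genes, and the part of this in the results below was not tested. TDH3 was so abundant that every group had 7 to 95 read solutions; it was left out of the limma fit, and its deposited levels and the authors' deposited comparison are given instead. For the other members, a group with several solutions entered the fit as its mean, with the gene's own spread taken from its other groups. In limma the spread of each gene was also drawn towards that of genes of like level. This prior had 6.2 degrees of freedom, against 3 to 10 of the members' own.

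Lower glycolysis RNA was lower in the mutant over most of the cycle, most of all ENO1, TDH1 and CDC19. These are bulk cultures, in which fewer cells in a phase and less RNA per cell cannot be told apart. Averaged over the 5 time points, 8 of the 9 fitted members were lower in the mutant and none was higher, where 31.9% of all genes were called lower and 38.2% higher (limma, Benjamini-Hochberg adjusted p under 0.05 over 5998 genes). The median of the 9 members was -0.49 on the log2 scale, against 0.03 over all genes. ENO1 was 2.49-fold lower in the mutant (log2 difference -1.31 ± 0.045, SE, n = 2 libraries in each of 10 groups; limma adjusted p = 9.62e-12). TDH1 was 1.92-fold lower (-0.94 ± 0.053) and CDC19 1.66-fold lower (-0.73 ± 0.036). ENO2, GPM1 and PGK1 followed at -0.58, -0.49 and -0.49, then PYK2 at -0.39 and TDH2 at -0.35. TPI1 was the member not called, at -0.07 ± 0.044 (adjusted p = 0.175). Of the 50 pairs of member and time point, TDH3 included, the deposited level was lower in the mutant in 46, against 48.3% of all such pairs over the table. The exceptions were TPI1, TDH2, TDH3 and ENO2, all at time point 3. The other 6 members had the lower level in the mutant at 5 of 5 times, as did 19.3% of all genes.

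**Figure D1:**
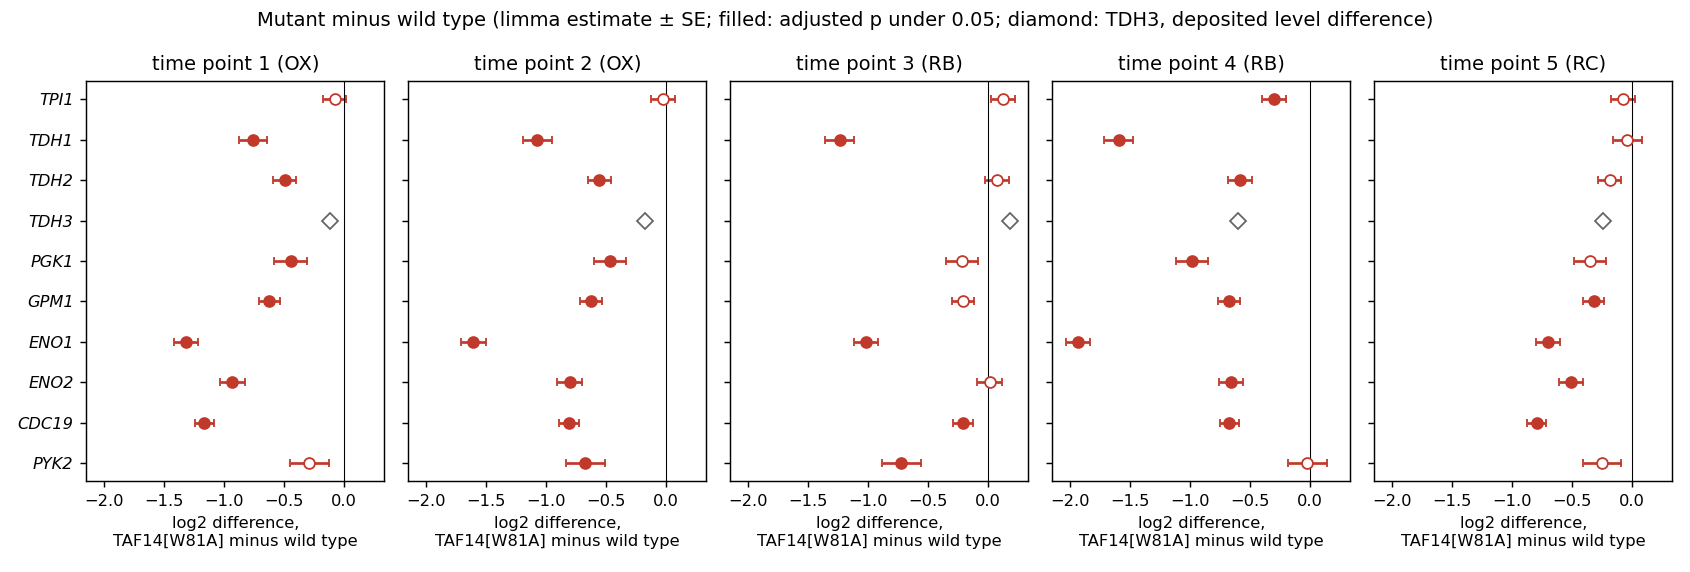
Log2 difference in RNA level, TAF14[W81A] minus wild type, for each lower glycolysis gene (rows) at each of the 5 time points (panels). Points are limma estimates with SE bars, filled where the adjusted p was under 0.05; diamonds are TDH3, the difference of the deposited levels with no error. Nearly all points lie left of 0, ENO1 reaches -1.93 at time point 4, and at time point 3 the points of TPI1, TDH2, TDH3 and ENO2 lie at or right of 0.

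The number of members called differed between the time points. At time point 1, 7 of the 9 fitted members fell in the mutant, where 25.3% of all genes were called lower and 24.1% higher. At time point 2, 8 fell, against 23.8% of all genes lower and 24.1% higher. At early RB (time point 3) only ENO1, TDH1, PYK2 and CDC19 fell, against 18.1% of all genes lower and 26.1% higher. At late RB (time point 4) 8 fell, against 21.9% lower and 26% higher, and PYK2 was the exception. At RC (time point 5) ENO1, CDC19, ENO2 and GPM1 fell, against 15.2% lower and 15.4% higher. No member was called higher at any time point. The median difference of the 9 was -0.62, -0.67, -0.21, -0.67 and -0.32 over time points 1 to 5, while the median of all genes lay between 0.00 and 0.02. The authors' deposited table calls 6, 9, 5, 9 and 7 of the 10 members lower at time points 1 to 5, beside 9.23%, 19.7%, 15.1%, 19.6% and 15.4% of its genes, and none higher, beside 4.97%, 18.9%, 18.4%, 18.8% and 12% of its genes. At time point 1 it calls 14.2% of its genes in either direction, against 49.3% in the limma fit, which shared 1 spread over all groups although the libraries of time point 1 differed more.

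In 23 pairs of member and time point the reads of all 4 libraries were known. TPI1, TDH2 and TDH3 had no such pair, and ENO2 only those of time points 2 and 5. The pairs in which the mutant level was not lower, all at time point 3, were thus not among them. Both mutant libraries lay below both wild-type libraries in 22 of them, against 35.3% of such pairs over all genes. The overlap was PYK2 at time point 4. An F test for unequal differences over time called 7 of the 9 members, all but PYK2 (adjusted p = 0.0639) and TPI1 (0.187), where 48.5% of all genes were called.

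All fitted members changed over the cycle in both genotypes: 9 of 9 in the mutant and 9 of 9 in wild type, where 91.6% and 93.7% of all genes were called (limma F tests over the 5 times). In wild type 8 of the 10 members had their highest level at late RB, time point 4, against 27.7% of all genes. In the mutant 6 of the 10 had theirs at early RB, time point 3, against 12.3% of all genes, while TDH1 was highest at time point 4 and TDH3, PGK1 and ENO1 at time point 5. The place of the peak was not tested, and some were near ties. In the mutant TDH2 had 12.43 at time point 3 and 12.39 at time point 5, and the GPM1 libraries of time points 3 (10.77 and 10.69) and 4 (10.60 and 10.74) overlapped. The lowest level was at early OX, time point 1, for every member except CDC19, which was lowest in RC in both genotypes. The members' highest and lowest levels were a median of 1.64 apart on the log2 scale in the mutant and 1.75 in wild type, against 1.14 and 1.33 over all genes. TDH1 had the widest range, 2.49 in the mutant and 3.33 in wild type. CDC19 had the narrowest, 1.03 in the mutant and 0.65 in wild type. ENO2 also ranged more widely in the mutant, over 1.19, against 0.71 in wild type, and these ranges were not tested.

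**Figure D2:**
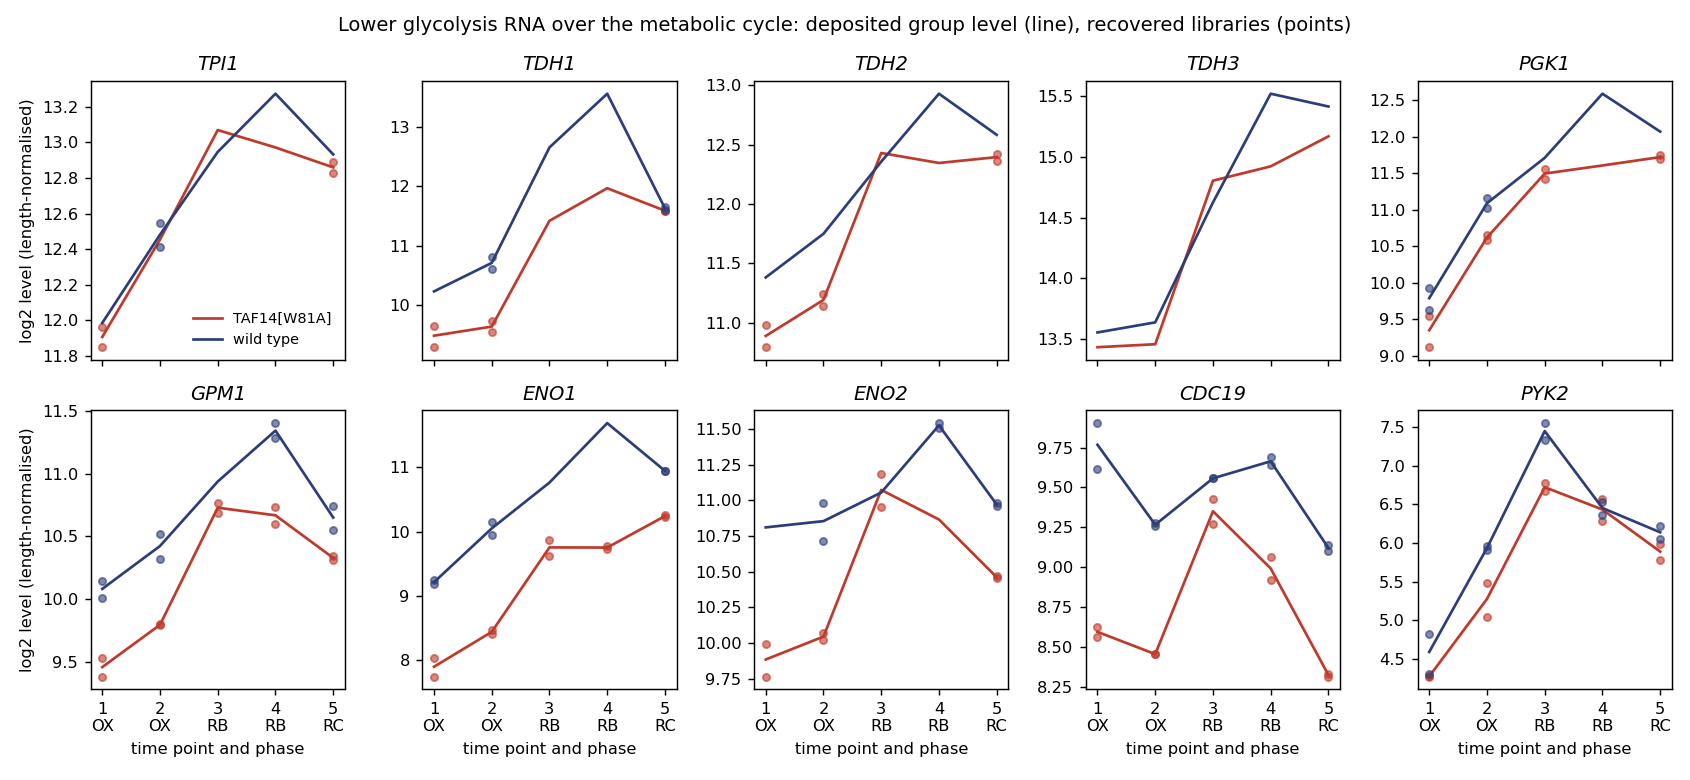
Length-normalised log2 RNA level (vertical axis, own scale in each panel) at time points 1 to 5 (horizontal axis, with the phase) for each lower glycolysis gene in TAF14[W81A] and wild type. Lines join the deposited group levels and points are single libraries where their reads had a single solution. The wild-type lines of 8 genes peak at time point 4, the mutant lines of TPI1, TDH2, GPM1, ENO2, CDC19 and PYK2 peak at time point 3, and CDC19 lies lower in the mutant at every time.

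The 10 genes together took a growing share of RNA from OX to RB. They held 0.903%, 1.34%, 2.86%, 2.73% and 3.03% of scaled reads at time points 1 to 5 in the mutant, and 1.15%, 1.79%, 3.07%, 3.98% and 3.60% in wild type. The share was lower in the mutant at each time. The per-length levels, averaged over the cycle, ran in nearly the same order in both genotypes. In the mutant the log2 mean was 14.36 for TDH3, 12.65 for TPI1, 11.85 for TDH2, 10.96 for PGK1, 10.82 for TDH1, 10.47 for ENO2, 10.19 for GPM1, 9.22 for ENO1, 8.75 for CDC19 and 5.72 for PYK2. In wild type it was 14.55 for TDH3, 12.72 for TPI1, 12.20 for TDH2, 11.76 for TDH1, 11.45 for PGK1, 11.04 for ENO2, 10.69 for GPM1, 10.53 for ENO1, 9.48 for CDC19 and 6.11 for PYK2. PGK1 and TDH1 were thus exchanged in the order, and they were close in the mutant, at 10.96 and 10.82. GPM1 and ENO1, neighbours in wild type, were close there, at 10.69 and 10.53. These means carry no error, and the order was not tested.

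At the dehydrogenase step TDH1 had lower levels in the mutant at every time. It had library levels of 9.65 and 9.29 in the mutant at time point 1, against a group level of 10.23 in wild type. At time point 2 the mutant libraries were at 9.73 and 9.54 and the wild-type libraries at 10.81 and 10.60. At time points 3 and 4 the group levels were 11.42 and 11.97 in the mutant, against 12.66 and 13.56 in wild type. No library of these times had known reads, so the p-values below for them hold no spread from within these groups. At time point 5 the mutant libraries, 11.59 and 11.59, lay just under the wild-type ones, 11.66 and 11.60. The gap between the genotypes was thus wide through OX and RB and nearly closed in RC. In the limma fit TDH1 fell at time points 1 to 4, with log2 differences of -0.76, -1.07, -1.24 and -1.59 (SE 0.12 each; adjusted p = 0.000301, 2.73e-05, 6.16e-06 and 4.9e-07) and differed by -0.04 at time point 5 (adjusted p = 0.835).

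TDH2 was called lower at time points 1, 2 and 4, at -0.50, -0.56 and -0.58 ± 0.10 (limma adjusted p = 0.00244, 0.00127 and 0.000835). It differed by 0.07 at time point 3 and by -0.19 at time point 5, neither called. TDH2 reads were known only in the mutant groups of time points 1, 2 and 5, so its own spread came from these 3 groups. The authors' deposited table calls TDH2 lower at time point 5 as well, at -0.20 (adjusted p = 4.38e-06). TDH3, the most abundant member, had deposited levels of 13.43, 13.46, 14.80, 14.92 and 15.17 at time points 1 to 5 in the mutant, against 13.56, 13.64, 14.63, 15.52 and 15.41 in wild type. Per length it ranked 30, 13, 4, 3 and 3 among all genes over these times in the mutant and 14, 5, 2, 4 and 3 in wild type. The authors' deposited table gives log2 fold changes of -0.12, -0.18, 0.15, -0.61 and -0.26 for TDH3, with adjusted p = 0.651, 0.0373, 0.166, 1.55e-32 and 5.33e-15. By that table TDH3 was lower in the mutant at time points 2, 4 and 5.

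TPI1, the isomerase before the dehydrogenase, differed least between the genotypes. Its group levels were 11.91, 12.45, 13.07, 12.97 and 12.86 over time points 1 to 5 in the mutant and 11.99, 12.48, 12.95, 13.27 and 12.93 in wild type. It was called lower at time point 4 only, at -0.30 ± 0.099 (limma adjusted p = 0.0305). The libraries of that time had no single solution in either genotype. The gene's own spread thus came from 3 other groups, and the fit joined it with that of other genes. The call was lost in 6 of the 20 fits without 1 library, with adjusted p-values from 0.0159 to 0.0801, and with upper-quartile scaling of the libraries (-0.24, adjusted p = 0.0724).

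PGK1, phosphoglycerate kinase, and GPM1, phosphoglycerate mutase, were both called lower at time points 1, 2 and 4. PGK1 had library levels of 9.55 and 9.12 in the mutant at time point 1, against 9.93 and 9.63 in wild type. At time point 2 they were 10.66 and 10.58 in the mutant, against 11.15 and 11.02 in wild type. Its largest difference was at time point 4, where the group levels were 11.60 in the mutant and 12.59 in wild type (-0.98 ± 0.13; limma adjusted p = 5.45e-05). No library of that time had known reads, so this p-value holds no spread from within these groups. The estimates at time points 1 and 2 were -0.45 and -0.47 (adjusted p = 0.0149 and 0.0118). At time point 1 the PGK1 call was lost without mutant library 2 (-0.23, adjusted p = 0.169) and without wild-type library 1 (-0.29, 0.0929), and in the authors' deposited table (-0.40, 0.104). At time point 2 it was lost without mutant library 2 (-0.43, 0.0773) and without wild-type library 1 (-0.40, 0.0867). At time points 3 and 5 PGK1 differed by -0.22 and -0.35 and was not called in the limma fit, whereas the authors' deposited table calls it lower at both (adjusted p = 0.0133 and 4.07e-21). The limma fit also called it at time point 5, at -0.35, in the 4 separate fits that each left out 1 library of time point 1.

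GPM1 fell at time points 1, 2 and 4, with log2 differences of -0.62, -0.63 and -0.68 (SE 0.088; limma adjusted p = 4.17e-05, 4.22e-05 and 1.2e-05). At time point 4 its libraries stood at 10.60 and 10.74 in the mutant, against 11.40 and 11.28 in wild type. In RC they stood at 10.31 and 10.34 in the mutant, against 10.55 and 10.74 in wild type. The genotypes did not overlap at either time, but the RC difference of -0.32 (adjusted p = 0.0126) lost its call without mutant library 1 (-0.30, 0.0773), mutant library 2 (-0.33, 0.0545) or wild-type library 2 (-0.23, 0.143) of time point 5. At time point 3 GPM1 differed by -0.21 (adjusted p = 0.067), and was called there without wild-type library 1 or 2 of time point 1 (-0.21, 0.041 and 0.0412).

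ENO1 had the largest mean difference of the 9 fitted members and, like CDC19, was called lower at all 5 times. Its mutant libraries had log2 levels of 8.04 and 7.75 at time point 1, against 9.25 and 9.18 in wild type. At time point 2 they had 8.48 and 8.41 in the mutant and 10.15 and 9.94 in wild type. These libraries did not overlap between genotypes. At time points 3 and 4 the mutant libraries had 9.87 and 9.62, then 9.73 and 9.77, against wild-type group levels of 10.76 and 11.68. At time point 5 they had 10.22 and 10.26 in the mutant and 10.94 and 10.94 in wild type. The mutant level thus climbed to RC, where the wild-type level had passed its peak. The fitted ENO1 values were log2 differences of -1.32, -1.60, -1.01, -1.93 and -0.70 (SE 0.10; limma adjusted p = 2.44e-07, 8.54e-08, 1.52e-06, 2.11e-09 and 0.000155), which is 3.82-fold at time point 4 and 1.63-fold at time point 5.

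ENO2, the other enolase, was lower in the mutant at 4 of the 5 times. It fell at time points 1, 2, 4 and 5, with log2 differences of -0.93, -0.80, -0.66 and -0.51 (SE 0.10; limma adjusted p = 1.07e-05, 3.71e-05, 0.000138 and 0.00242). At time point 3 it had mutant libraries at 11.18 and 10.95 and a wild-type group level of 11.05, a difference of 0.01 (adjusted p = 0.927). In OX the mutant libraries of time point 2 were at 10.07 and 10.02, against 10.98 and 10.71 in wild type. The mutant level was below the lowest wild-type level of the cycle at 3 of the 5 times.

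CDC19, the main pyruvate kinase, was lower in the mutant at every time. Its libraries had log2 levels of 8.56 and 8.63 in the mutant at time point 1, against 9.62 and 9.90 in wild type. At time point 2 they had 8.46 and 8.46 in the mutant and 9.26 and 9.28 in wild type. At time point 3 they had 9.43 and 9.27 in the mutant and 9.56 and 9.56 in wild type. The gap was narrowest there. At time point 4 the libraries had 8.92 and 9.06 in the mutant and 9.69 and 9.64 in wild type. At time point 5 they had 8.34 and 8.32 in the mutant and 9.10 and 9.14 in wild type. The genotypes overlapped at no time point. The fitted differences were -1.16, -0.81, -0.21, -0.67 and -0.79 (SE 0.081; limma adjusted p = 4.49e-08, 1.45e-06, 0.0462, 3.33e-06 and 4.24e-06). The call at time point 3 was lost in 13 of the 20 fits without 1 library, where the estimate ran from -0.29 to -0.13 and the adjusted p from 0.00953 to 0.319, and with upper-quartile scaling (-0.17, adjusted p = 0.0753).

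CDC19 was also the member most often outside the wild-type range. Its mutant level was below the lowest wild-type level at 4 of the 5 times, where 3.75% of all genes had at least 4 such times. At least 2 such times were seen for 7 of the 10 members, against 15.7% of all genes, and at least 1 for 10 of 10, against 35.2%. The counts compare group levels without error. TPI1 and PYK2 counted through time point 1 only, where their differences of -0.08 and -0.29 were not called (limma adjusted p = 0.534 and 0.147). No member had a mutant level above its highest wild-type level.

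PYK2, the minor pyruvate kinase, was the least abundant member, with 64 to 870 recovered reads per library. Its libraries had log2 levels of 5.48 and 5.04 in the mutant at time point 2, against 5.96 and 5.91 in wild type. At time point 3, its peak in both genotypes, they had 6.67 and 6.77 in the mutant and 7.34 and 7.55 in wild type. At time point 4 they overlapped, at 6.56 and 6.28 in the mutant and 6.37 and 6.53 in wild type. PYK2 was called lower at time points 2 and 3, at -0.67 and -0.72 ± 0.16 (limma adjusted p = 0.00267 and 0.00165), and not at time points 1, 4 and 5 (-0.29, -0.02 and -0.25). Without mutant library 2 of time point 2 the first of these calls was lost (-0.45, adjusted p = 0.0634). The call at time point 1 was gained without wild-type library 2, with libraries at 4.27 and 4.28 in the mutant and 4.83 and 4.30 in wild type (-0.55, adjusted p = 0.00786).

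The step from OX to RB, the mean of time points 3 and 4 minus that of 1 and 2, was upward for nearly every member in both genotypes. In the mutant 9 of 9 rose (41.6% of all genes were called higher), and in wild type 8 of 9 rose (43.3%). The median rise was 1.35 in the mutant and 1.08 in wild type on the log2 scale, against 0.01 and 0.02 over all genes. Taken gene by gene, the rise in the mutant minus that in wild type had a median of 0.11, upward for 5 members and downward for 4. TDH1 rose most in both genotypes, by 2.14 in the mutant and 2.64 in wild type. CDC19 rose by 0.64 in the mutant but differed by 0.10 in wild type (limma adjusted p = 0.123). That wild-type value was 0.34 without time point 1 (adjusted p = 1.6e-06), 0.17 without wild-type library 2 of time point 1 (0.00393) and 0.12 with upper-quartile scaling (0.0433).

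The difference between the 2 genotypes in this step was itself called for 4 of the 9 members, against 47.4% of all genes (26.7% upward and 20.8% downward). It was upward for CDC19 (0.55 ± 0.081, limma adjusted p = 3.42e-05), ENO2 (0.54 ± 0.10, 0.000681) and TDH2 (0.27 ± 0.098, 0.0455), for which OX and RB were further apart in the mutant. It was downward for TDH1 (-0.50 ± 0.12, 0.00453). The call for TDH2 was lost in 17 of the 20 fits without 1 library, with adjusted p from 0.0221 to 0.109.

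From OX to RC, time point 5 minus the mean of 1 and 2, 8 members rose and 1 fell in the mutant, where 35% of all genes were called higher and 40.4% lower. In wild type 7 rose and 1 fell (35.7% higher and 41.1% lower). CDC19 was the member that fell, by 0.20 in the mutant and by 0.39 in wild type (limma adjusted p = 0.0159 and 7.18e-05). The mutant call was lost with upper-quartile scaling (-0.08, adjusted p = 0.305), without time point 1 (-0.13, 0.0521) and without mutant library 1 (-0.21, 0.0615) or library 2 (-0.19, 0.0862) of time point 5. ENO2 was the member without a call in wild type, at 0.14 (0.166), and it was called without wild-type library 1 of time point 2 (0.21, 0.0484) and with upper-quartile scaling (0.23, 0.0297). PYK2 rose by 0.88 in wild type, but by 0.20 and without a call when time point 1 was left out (adjusted p = 0.144). The difference between genotypes in this step was called for ENO1 (0.76 ± 0.12, 0.000971) and TDH1 (0.87 ± 0.15, 0.00212), 2 of 9 against 17.1% of all genes (9.79% upward and 7.3% downward). Both rose further from OX to RC in the mutant: TDH1 by 2.04 in the mutant and 1.16 in wild type, and ENO1 by 2.07 in the mutant and 1.31 in wild type. The count was 4 with upper-quartile scaling and 4 without time point 1. It was 5 without mutant library 1 or wild-type library 1 of time point 1, and 4 without wild-type library 2 of time point 1 or of time point 2.

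The steps that have isoforms are next described by the share of each, from group levels. ENO1 made up 20.2%, 24.8%, 28.6%, 31.6% and 46.2% of the summed per-length enolase level at time points 1 to 5 in the mutant, against 24.9%, 36.4%, 45.0%, 52.8% and 49.5% in wild type. In wild type ENO1 was above ENO2 at time point 4 only, by a log2 ratio of 0.16, and the ratio was -0.03 at time point 5. In the mutant ENO2 led at every time. The wild-type lead of ENO1 at time point 4 was not tested. TDH1 made up 5.22%, 5.52%, 7.42%, 9.94% and 6.80% of the dehydrogenase level in the mutant and 7.53%, 9.36%, 17.4%, 18.1% and 5.98% in wild type. TDH3 held the largest share at every time, 77.1% to 81.3% in the mutant and 68.4% to 82.5% in wild type. PYK2 made up 4.76%, 9.93%, 13.9%, 14.5% and 15.6% of the pyruvate kinase level in the mutant and 2.69%, 9.03%, 18.8%, 9.73% and 11.2% in wild type. The PYK2 share was higher in the mutant at 4 of the 5 times and lower at time point 3.

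**Figure D3:**
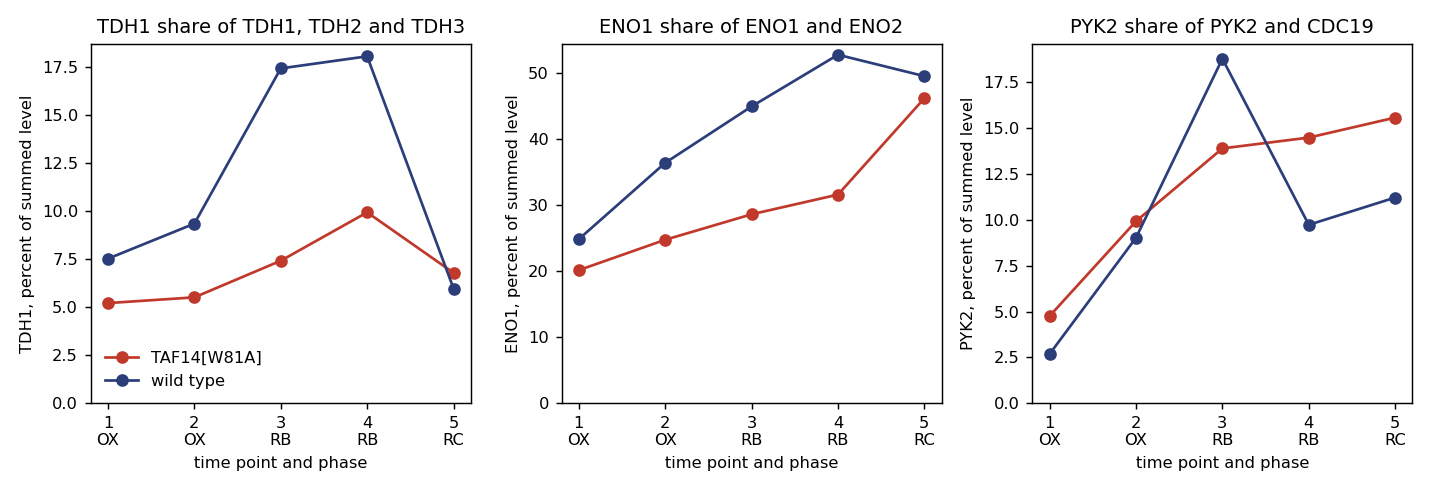
Share of the summed per-length RNA level of a step held by TDH1, ENO1 and PYK2 (vertical axes, percent, from 0) at time points 1 to 5 in TAF14[W81A] and wild type, from the deposited group levels with no error. TDH1 reaches 9.94% in the mutant and 18.1% in wild type at time point 4, ENO1 reaches 31.6% in the mutant and 52.8% in wild type at that time, and the PYK2 lines cross.

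Ratios within a library do not depend on how libraries are scaled. The log2 ratio of ENO1 to ENO2 was lower in the mutant at 5 of 5 times, with a mean difference of -0.74 in the group levels. All 4 libraries had known reads of both genes at time points 2 and 5 only. There the ratio was -1.59 and -1.61 in the mutant and -0.83 and -0.77 in wild type at time point 2, and -0.23 and -0.21 in the mutant and -0.02 and -0.04 in wild type at time point 5. The mutant libraries lay lower at both times, with a mean difference of -0.50 (two-sided exact permutation test within time points, p = 0.0556, which is the smallest that 36 arrangements allow). The log2 ratio of PYK2 to CDC19 was higher in the mutant by a mean of 0.34 over 5 times (two-sided exact permutation test, p = 0.0543 over 7776 arrangements; 0.0556 adjusted over the 2 ratios tested, as for the enolases). By time point that difference was 0.85, 0.15, -0.52, 0.65 and 0.55, so it had the opposite sign at time point 3. Leaving out 1 library gave p from 0.0288 to 0.0466 in 4 of 20 runs, without mutant library 2 of time point 2 (0.38), mutant library 1 of time point 3 (0.36), wild-type library 1 of time point 1 (0.42) or wild-type library 2 of time point 3 (0.36). The log2 ratio to TDH3 was lower in the mutant on average, at -0.75 for TDH1 and -0.16 for TDH2, in group levels without a test. It was higher in the mutant at time point 5 for TDH1 (0.20) and at time points 4 and 5 for TDH2 (0.01 and 0.06).

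The members resembled each other in their levels over the 10 groups, with CDC19 apart. Pearson r between members ran from 0.155 for TDH3 with CDC19 to 0.965 for TPI1 with PGK1, and r of CDC19 was highest with ENO2, at 0.801. The groups share the cycle and their libraries, so r is a description. Among 4875 other named genes with a mean of at least 50 scaled reads, TDH3 was most like PIL1 (r = 0.991), PRB1 (0.983) and SED1 (0.98). TDH1 was most like DUG1 (0.978), LAT1 (0.975) and CCP1 (0.975), and ENO1 most like IVY1 (0.983), WTM1 (0.98) and HAP2 (0.972). CDC19 was most like EMC3 (0.961), RPE1 (0.927) and CDC11 (0.915). PYK2 was most like AQY3 (0.977), MRS4 (0.969) and REG2 (0.968).

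Genes of the neighbouring steps of carbon metabolism are given in the same mean over 5 times, in which 31.9% of all genes were called lower and 38.2% higher. In upper glycolysis 3 of the 6 tested genes (of 7 listed) were lower in the mutant and 2 higher, with a median of -0.28, and the largest changes were in the glucokinase GLK1 (-0.65 ± 0.082, limma adjusted p = 1.37e-05), the phosphofructokinase subunit PFK2 (-0.52) and the hexokinase HXK2 (-0.49). Among 5 minor homologs of lower glycolysis 3 were lower and 1 higher. The enolase-like ERR2, ERR1 and ERR3 stood at -1.34, -1.20 and -1.03 on average and at -2.79, -2.82 and -2.55 at time point 4, where ENO1 also had its largest difference. The ERR genes are near-identical to each other, so their separate values are uncertain.

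In the same mean over 5 times, of 8 genes from pyruvate to ethanol 6 were lower and 1 higher, with PDC6, a minor pyruvate decarboxylase, at -0.89 ± 0.043 and the alcohol dehydrogenases ADH4 and ADH2 at 0.31 and -0.21. The PDC6 mean joins unequal differences, -2.71, -1.10, -0.39 and -0.52 at time points 1 to 4, with no call at time point 5. In the mean, of 8 genes from pyruvate to mitochondrial acetyl-CoA 6 were lower and none higher, among them the pyruvate dehydrogenase subunits LAT1 (-0.57), PDA1 (-0.45) and LPD1 (-0.20). In the glycerol branch, which leaves glycolysis at the triose phosphates, 3 of 4 were lower, with the glycerol phosphate dehydrogenases GPD1 at -0.84 and GPD2 at -0.44 and the phosphatase GPP1 at -0.13. The GPP1 mean joins called differences of both signs, -1.28, -0.62, 0.56, 1.05 and -0.35 at time points 1 to 5. For the reversal of glycolysis 3 of 4 were lower, namely FBP1, fructose bisphosphatase, at -0.87 and the pyruvate carboxylases PYC1 and PYC2 at -0.57 and -0.46. Of 6 transcription factors known to act at yeast glycolytic genes 5 were lower and 1 higher, with RAP1 at -0.32, ABF1 at -0.23 and TYE7, an activator of glycolytic genes, at 0.21. By time point TYE7 was called higher at 1 (0.75) and 3 (0.30) only. The medians of these lists lay between -0.51 and -0.16, against -0.49 for the lower glycolysis genes, except for the minor homologs, at -1.03.

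Acetylation of lysine 9 of histone H3 (H3K9ac), a mark found near the starts of transcribed genes, was measured by ChIP-seq in wild type, with 1 library at time point 4 and 1 at time point 3. With no replicate there is no test, the depth is unknown, and the scale of the deposited signal is not stated. Signal was averaged over the position bins 9 to 15, around the first peak of the all-gene mean, at bin 12. These bins were taken to lie near the gene start, although the binning is not stated. The all-gene mean at bin 12 was 0.951 at time point 4 and 1.02 at time point 3. At bin 57, the last complete one, it was higher, at 1.01 and 1.03. The members had a median of 1.61 at time point 4 and 1.75 at time point 3, against 0.845 and 0.934 over 6008 genes. Each member was above the median of all genes at both times, between the percentiles 74.3 and 97.8. PGK1 had the highest signal, 2.07 at time point 4 and 2.00 at time point 3. CDC19 had 1.15 at time point 4 and 1.22 at time point 3, and TDH2 had 1.15 and 1.25 at these times, which were the 2 lowest of the 10 genes.

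The change from early to late RB was small and mostly downward, as over all genes. The median was -0.0764 for the members and -0.0633 for all genes, and 2 of 10 members were higher at time point 4, PGK1 by 0.0723 and TPI1 by 0.0272, against 33.6% of all genes. TDH1 had 1.65 at time point 4 and 1.95 at time point 3, a change of -0.301 that lay at percentile 8.52 of all genes. TDH3 had 1.37 at time point 4 and 1.59 at time point 3. The wild-type RNA libraries are separate samples. In them TDH1 had a level of 13.56 at time point 4 and 12.66 at time point 3, and PGK1 had 12.59 and 11.71 at these times. The RNA level of both was higher at the later time. Over bins 9 to 15 the mark was lower for TDH1 and higher for PGK1. Over all bins complete at both times PGK1 was lower at time point 4, at 1.30 against 1.41, as was TDH1, at 1.23 against 1.32. TPI1 was also lower over these bins, at 1.26 against 1.32, and CDC19 was higher, at 0.957 against 0.892. The direction for PGK1, TPI1 and CDC19 thus depended on the bins.

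**Figure D4:**
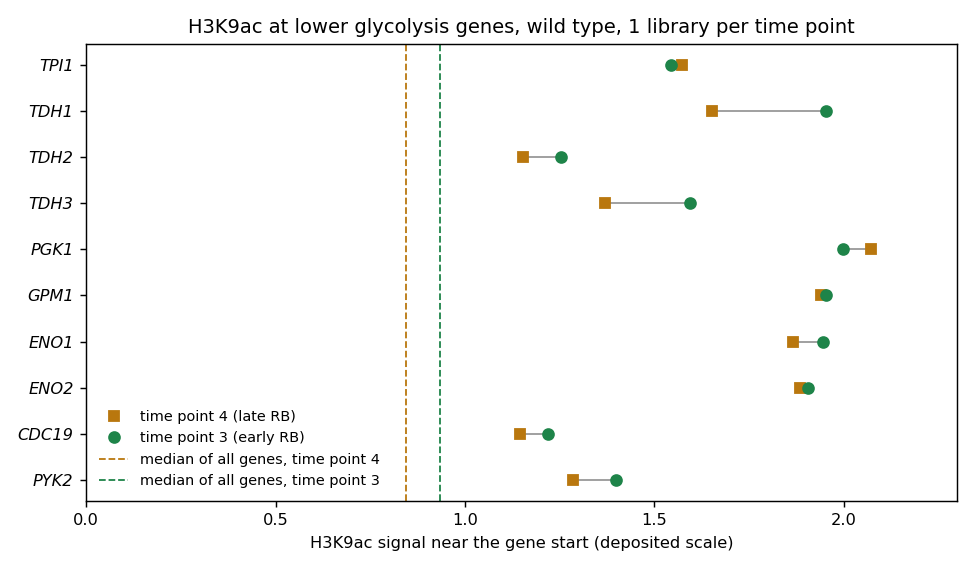
H3K9ac signal over bins 9 to 15, taken as near the gene start, on the deposited scale (horizontal axis, from 0). Values are for each lower glycolysis gene in wild type at time point 4 (squares) and time point 3 (circles), 1 library each. Dashed lines are the medians of all genes, 0.845 at time point 4 and 0.934 at time point 3, and every gene lies right of both; TDH1 shows the widest gap, 1.65 at time point 4 and 1.95 at time point 3.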

How the data were processed

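The deposited RNA table gives log2 levels per genotype and time point, and the authors' log2 fold change and adjusted p-value per time point, per the file headers. BWA, DESeq2, MACS2 and deepTools are named in the submitters' processing notes, with sacCer3 as the build and no version given. The deposited ChIP signal per gene and bin has no stated scale or binning. It had 1048575 rows; 344 broken rows and 281351 repeated ones were left out. H3K9cr and H3 were not analysed here.

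A linear level times gene length was resolved into whole reads of 2 libraries. This succeeded at the RefSeq length for 5438 of 6008 genes and at a searched length for 567, and for 0.957% of genes with shuffled lengths. Libraries carry no replicate letter. Log2(scaled reads + 1), unfiltered, was fitted with limma 3.58.1 (trend; R 4.3.3) for 5998 genes in 10 groups, with Benjamini-Hochberg adjustment and a threshold of 0.05, two-sided. The fit was tested on simulated data. Alternatives were pseudocount 8, a minimum mean of 50 scaled reads, upper-quartile scaling, the authors' comparison, leaving out time point 1 and leaving out each of 20 libraries. Isoform ratios had exact permutation tests, adjusted over 2 ratios instead of the planned 4. The members, the 7 lists and the tests were chosen with earlier results of these data known. All members are named, and from each list at most the 3 largest changes past the threshold.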

Additional observations from a re-analysis of the deposited data

Results flagged for a closer look

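The difference between mutant and wild type was unequal over the 5 time points for 7 members, by the limma F test of genotype by time, which called 48.5% of all genes. The adjusted p was 4.6e-05 for ENO1, 7.53e-05 for CDC19, 0.000146 for TDH1, 0.00101 for ENO2, 0.0111 for TDH2, 0.0139 for GPM1 and 0.0341 for PGK1.

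The step from OX to RB differed between the genotypes, on the log2 scale and as mutant minus wild type, by 0.55 for CDC19, 0.54 for ENO2, 0.27 for TDH2 and -0.50 for TDH1, where 47.4% of all genes were called. The TDH2 call was lost in 17 of the 20 fits without 1 library. The step from OX to RC differed by 0.87 for TDH1 and 0.76 for ENO1, where 17.1% of all genes were called.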

How the results depend on the processing

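Of the single-gene results, 108 of 108 kept their direction and side of the threshold with pseudocount 8 and 108 of 108 with a minimum mean of 50 scaled reads. With upper-quartile scaling 97 did, which put the all-gene median of RC minus OX in the mutant at 0.08, against -0.04 with the authors' scaling. Without time point 1, 48 of 54 did, and 40 of 45 did by the authors' deposited comparison. The number of members called stayed within 1.5 times for every comparison and alternative run, except for the difference in RC minus OX, which was 2 and became 4 with upper-quartile scaling and 4 without time point 1, and 2 to 5 when single libraries were left out. The PYK2 to CDC19 ratio was 0.34 with pseudocount 8 (exact p = 0.0499), and 0.26 to 0.42 without single libraries, of which 4 of 20 runs passed the threshold. The H3K9ac change was -0.111 over all bins, -0.0130 relative to all genes and -0.0748 as a log2 ratio. Values that changed sign were never called. ENO2 at time point 3 was -0.00422 in the authors' deposited table and -0.10 to 0.13 without single libraries. With upper-quartile scaling PYK2 at time point 4 was 0.0394, TDH1 at time point 5 was 0.00826, the ENO1 difference in RB minus OX was 0.0225 and the TPI1 difference in RC minus OX was 0.0136. The ENO1 value was 0.13 without time point 1. Without single libraries PYK2 at time point 4 ran from -0.16 to 0.12, TPI1 at time point 2 from -0.0924 to 0.0410, the RB minus OX difference of ENO1 from -0.0845 to 0.0611 and of PYK2 from -0.0214 to 0.24, and the RC minus OX difference of TPI1 from -0.0541 to 0.0126. The cause of these changes was not tested.

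No paired analysis was possible because the recovered libraries carry no replicate letter. Where a group is known only as a mean, leaving out a library kept the mean and counted it as 1 library. TDH3, the most abundant member, has no replicate error here. Reads shared by near-identical isoforms and antisense reads cannot be apportioned, since counting is not described.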
